A study of Mus musculus with 8 samples.

Results

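The Cre control was compared with the flox control, the pair of control lines behind a neutrophil knockout of Arf6, a small GTPase of membrane traffic and the actin cytoskeleton. The members were 5 of the 8 arrays of the series, chosen by sample title and genotype label: 2 Cre control arrays, titled PMN-Cre+/+ with genotype flox-/-Cre+/+, and 3 flox control arrays, titled PMN-Arf6flox with genotype flox+/+Cre-/-. Neither group combines Cre with the floxed allele, so Arf6 is intact in both. The comparison reads the background of the mouse lines and pools together with any effect of Cre or of the floxed allele. These cannot be told apart here. The other 3 arrays are the conditional knockout (cKO, flox+/+Cre+/+), and they entered only the estimate of the spread and the filter on dim probe sets. Each array held RNA of neutrophils pooled from 5 mice that had received lipopolysaccharide (LPS) in an air pouch, a skin cavity into which leukocytes migrate. The labels call the cell type leucocytes, and the design text gives purification by negative selection to 98% Ly6G-positive cells. Pooling hides the spread between single mice. The sources used here give no strain, age or sex of the mice, no promoter for Cre, and no dose or time of LPS. The design text states 3 pools per genotype, and 1 more pool of the Cre control is not analysed here. On every array the source field contradicts the title and the genotype label, which give the same genotype. Arf6 does not tell the control lines apart, so their assignment rests on those labels alone.

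In a conditional knockout, Cre recombinase excises a gene flanked by loxP sites, and mice with only the floxed allele or only Cre serve as controls. The lines are usually bred separately and can carry chromosome segments of different founder strains. Among the genes that vary most between mouse strains are clusters of tandem copies in innate immunity. They include TRIM genes of the TRIM5-related cluster on chromosome 7, which encode interferon-inducible ubiquitin ligases and restriction factors, and the guanylate-binding proteins (GBPs), interferon-inducible GTPases that act on intracellular pathogens.

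In the Cre control, 58 genes differed from the flox control, which was 0.436% of the 13296 genes tested, 39 of them higher and 19 lower. The widest difference was in Trim12a, which was 82.6-fold higher, and 5 of the called genes lay in the TRIM cluster. The interferon-inducible genes Gbp8 and Mx1 and the immune receptors Slamf7 and Cd40 were also higher. Genes lower in the Cre control included the matrix glycoprotein gene Emilin2, the phospholipid-binding protein gene Anxa3, the lipid genes Gpat3 and G0s2, and the chemokine-like peptide gene Prok2. Levels are log2 intensities, a difference is Cre control minus flox control, and a gene is called when a probe set passes an adjusted p of 0.05 in limma with Benjamini-Hochberg adjustment over 14002 probe sets. In all 68 probe sets passed, 49 higher and 19 lower, with sizes of 0.72 to 6.37. The arrays of the lines did not overlap in any of them, nor in 32.7% of all tested probe sets. The plot of differences by level shows the TRIM genes far outside the cloud of the other probe sets. No probe set passed when either Cre control array was left out (1158 probe sets without replicate 1 and 1343 without replicate 2 at an unadjusted p under 0.05 by limma). The count was 31 without flox control replicate 1, 18 without flox control replicate 2, 107 without flox control replicate 3, 21 without cKO replicate 1 and 235 without cKO replicate 2.

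**Figure D1:**
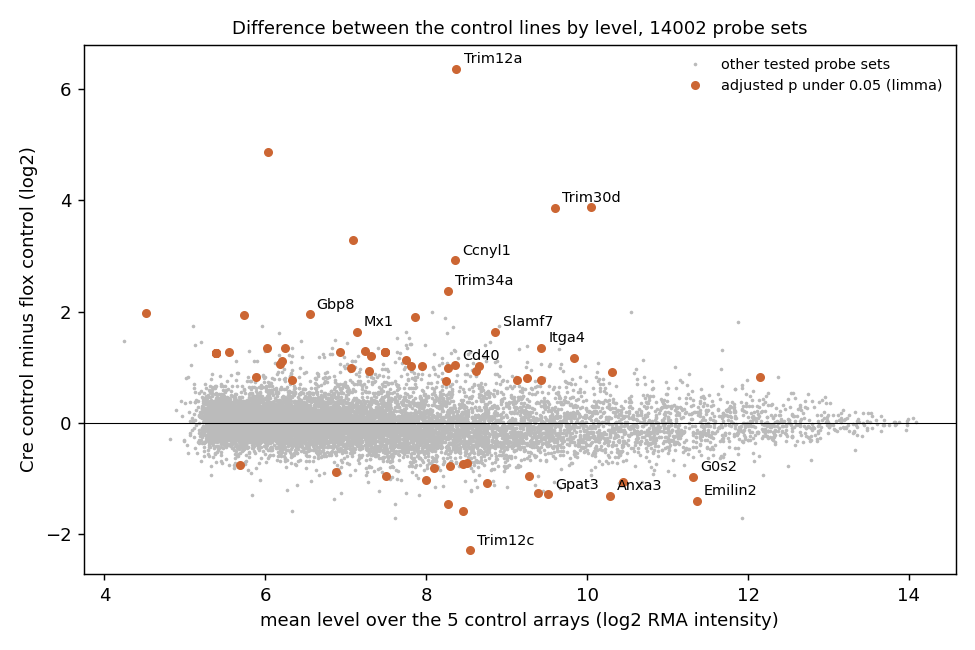
Each point is a probe set, with the mean level over the 5 control arrays (log2 intensity) on the horizontal axis and the difference, Cre control minus flox control (log2), on the vertical axis. Orange points passed an adjusted p of 0.05, and Trim12a at 6.37 lies highest while Trim12c at -2.29 lies lowest.

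The promoters of the 4 called TRIM genes with current names of the family are shown because these neighbours stood apart together. Each is the RefSeq window of GRCm38.p6 from 250 bases before to 50 bases after the start of the gene, written 5′ to 3′ on the gene's strand. Capitals mark matches to a core form of the interferon-stimulated response element, GAAA and GAAA with 2 bases of any kind between them, searched on both strands. On the opposite strand it reads TTTC and TTTC, and no other motif was searched. The windows are Trim12a at chr7:104315446-104315745 (minus strand), Trim34a at chr7:104244207-104244506 (plus strand), Trim12c at chr7:104353300-104353599 (minus strand) and Trim30d at chr7:104507800-104508099 (minus strand).
Trim12a: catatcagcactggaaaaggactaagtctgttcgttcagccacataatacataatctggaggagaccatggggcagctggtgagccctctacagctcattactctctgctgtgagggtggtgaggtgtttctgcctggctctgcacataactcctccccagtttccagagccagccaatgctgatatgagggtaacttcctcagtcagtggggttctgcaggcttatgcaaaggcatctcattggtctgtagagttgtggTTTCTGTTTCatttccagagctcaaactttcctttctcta
Trim34a: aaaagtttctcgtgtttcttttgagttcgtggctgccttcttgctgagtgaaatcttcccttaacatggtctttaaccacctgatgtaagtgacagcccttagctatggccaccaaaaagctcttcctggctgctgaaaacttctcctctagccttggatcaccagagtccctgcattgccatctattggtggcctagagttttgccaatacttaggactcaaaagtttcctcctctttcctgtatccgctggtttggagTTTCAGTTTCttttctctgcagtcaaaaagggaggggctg
Trim12c: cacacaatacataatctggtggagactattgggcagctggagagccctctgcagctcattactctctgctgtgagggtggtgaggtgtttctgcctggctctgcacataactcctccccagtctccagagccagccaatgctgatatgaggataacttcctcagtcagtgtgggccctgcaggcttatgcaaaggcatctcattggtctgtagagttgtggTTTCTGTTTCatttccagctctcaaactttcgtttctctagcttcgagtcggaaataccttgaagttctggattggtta
Trim30d: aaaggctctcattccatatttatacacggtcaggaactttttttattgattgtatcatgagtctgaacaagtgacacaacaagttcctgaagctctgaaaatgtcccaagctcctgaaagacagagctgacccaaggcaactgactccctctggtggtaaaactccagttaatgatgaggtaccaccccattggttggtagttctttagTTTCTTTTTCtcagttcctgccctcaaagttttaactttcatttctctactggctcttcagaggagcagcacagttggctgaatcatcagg
All 4 windows held 1 match, and each lay on the strand opposite to the gene. The match began at base 261 of the window in Trim12a and Trim34a, at base 222 in Trim12c and at base 210 in Trim30d. Of 8 genes of the family with a window in the table, 5 held a match, where 3.44% of all 32851 windows did. The first count is of genes and the share is of windows. Copies of the family are alike in sequence, so the 5 are not separate hits. The fifth was Trim30a, which was not called, and Trim30b, Trim30c and Trim34b held none. Whether the matches bear on the differences was not tested. Trim12c, which was lower in the Cre control, held the same 10 letters as Trim12a, which was higher. These are reference sequences, and the sequence that either line carries was not read.

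Trim12a, a TRIM5-related gene, read 5.68, 5.80 and 6.0 in the flox control pools and 12.15 and 12.24 in the Cre control pools. The flox readings lay close to 5.45, the median of all values in the file, so the fold depends on the array's floor. The difference was 6.37 (SE 0.57, 95% interval 5.09 to 7.64, adjusted p = 0.00518, limma). Its call was lost without either Cre control array, at 6.41 (adjusted p = 0.182) and 6.32 (adjusted p = 0.11). Over the alternatives the adjusted p ranged from 2.55e-07, without cKO replicate 2, to 0.182. In the cKO, which carries both Cre and the floxed allele, Trim12a read 11.33, 8.83 and 10.88, all between the control lines and wider apart than the pools of either one. The SE and interval take in that spread, so they do not measure the spread of the control pools alone. With the 5 control arrays fitted alone the adjusted p was 1.58e-06 (limma).

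Its neighbours in gene order showed differences in both directions. Trim34a read 6.88, 7.56 and 7.52 in the flox control and 9.74 and 9.65 in the Cre control, a difference of 2.38 (SE 0.26, adjusted p = 0.013), and both Cre control pools lay above all flox control pools. A second, dimmer probe set read 3.68, 3.61 and 3.89 against 5.84 and 5.57. It exceeded the filter level of 5.45 in the Cre control arrays alone, so its difference of 1.98 (SE 0.22, adjusted p = 0.013) is no separate support. Trim30d read 8.79, 7.63 and 7.73 in the flox control and 11.86 and 11.99 in the Cre control. That is a 14.6-fold difference, 3.87 on the log2 scale (SE 0.57, adjusted p = 0.0274), and flox control replicate 1 stood above its 2 companions. Trim12c, the near copy of Trim12a, went the other way, with 8.99, 9.69 and 9.70 in the flox control and 7.38 and 6.96 in the Cre control. It was 4.90-fold lower (-2.29, SE 0.32, adjusted p = 0.0223). The predicted gene Gm15133, which lies between Trim12a and Trim12c in gene order and was picked out after its values were seen, read 3.88, 4.38 and 3.97 in the flox control and 9.01 and 8.91 in the Cre control. It differed by 4.88 (SE 0.59, adjusted p = 0.0149), and since all flox readings were under 5.45 that size depends on the array's floor. Its SE takes in cKO readings of 8.14, 5.54 and 7.59, and that of Trim30d takes in 11.14, 8.9 and 10.74. Of the 68 called probe sets, 10 had no flox control array above 5.45, and 2 of these had no cKO array above it. Trim30d and Trim12c were not called in the absence of flox control replicate 2 or of a Cre control array.

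Trim30b, Trim30c and Trim30a did not pass. In each, every Cre control array lay above every flox control array, as was so in 15.4% of all genes. Trim30b read 10.50, 11.25 and 11.72 against 12.93 and 13.00, a difference of 1.81 (SE 0.35, adjusted p = 0.0584). Trim30a differed by 0.77 (SE 0.26) and Trim30c by 0.60 (SE 0.22). Further along the chromosome, the ubiquitin ligase gene Trim21 read 0.00 and Trim3 0.26. Of 13 genes on the TRIM list, 11 had a probe set of their own and 9 were tested, among them Trim21 and Trim3. The median difference of the list was 0.77 beside 0 over all genes, so it is not that of the run of neighbours alone. Copies of this family are alike in sequence and can share probes, and the values are hybridisation signals. Whether the lines differ in sequence under the probes was not tested.

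**Figure D2:**
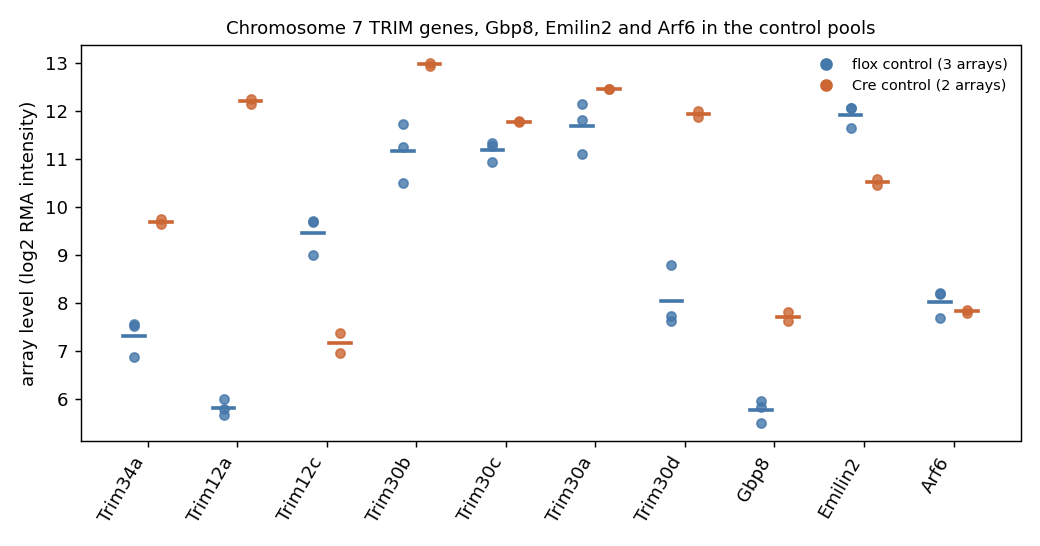
Each point is 1 pool, with the log2 intensity on the vertical axis and the gene on the horizontal axis; short lines are group means over 3 flox control and 2 Cre control arrays. The groups lie apart in the TRIM genes, Gbp8 and Emilin2, with Trim12c and Emilin2 lower in the Cre control, and overlap in Arf6.

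The difference was steep at the edges of the TRIM run, but other called genes lay further out on chromosome 7. Before the run, Pde2a lay 30 tested genes from Trim34a, and C2cd3 lay 14 from Pde2a. Beyond it, Gm1966 lay 16 tested genes from Trim30d, and Tmem9b lay 13 from Gm1966. Among the 5 tested genes on each side of Trim12a, 3 of 10 were called and the median size of difference, taken without its sign, was 0.69. Among the 20 on each side, 4 of 40 were called and the median size was 0.17, where all 13218 genes with a known position had 0.16 and 54 of them were called. Beyond Trim34a the nearest tested genes were Olfm5 (0.08, SE 0.13) and the olfactory receptor gene Olfr646 (0.16, SE 0.12), and beyond Trim30d the receptor gene Olfr661 (0.04, SE 0.19). Among the 10 tested genes on each side of Gbp8 none was called, and among the 20 on each side 1 was, Gpat3, which was lower. Further out on chromosome 5, the called gene Anxa3 lay 20 tested genes before Gpat3, and Ep400 lay 42 beyond Gbp8. Around Emilin2, with 10 or 20 genes on each side, 1 other gene was called. It was the small nucleolar RNA gene Snord53 (-1.58, SE 0.19, adjusted p = 0.0143, limma). Among the 10 on each side of Arf6 on chromosome 12 none was called and the median was -0.07. An unadjusted p under 0.05 by limma was found in 3 of these 20, beside 1932 of all 13218 genes with a position. Among the 10 on each side it was found in 6 around Gbp8, 6 around Emilin2 and 9 around Trim12a.

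**Figure D3:**
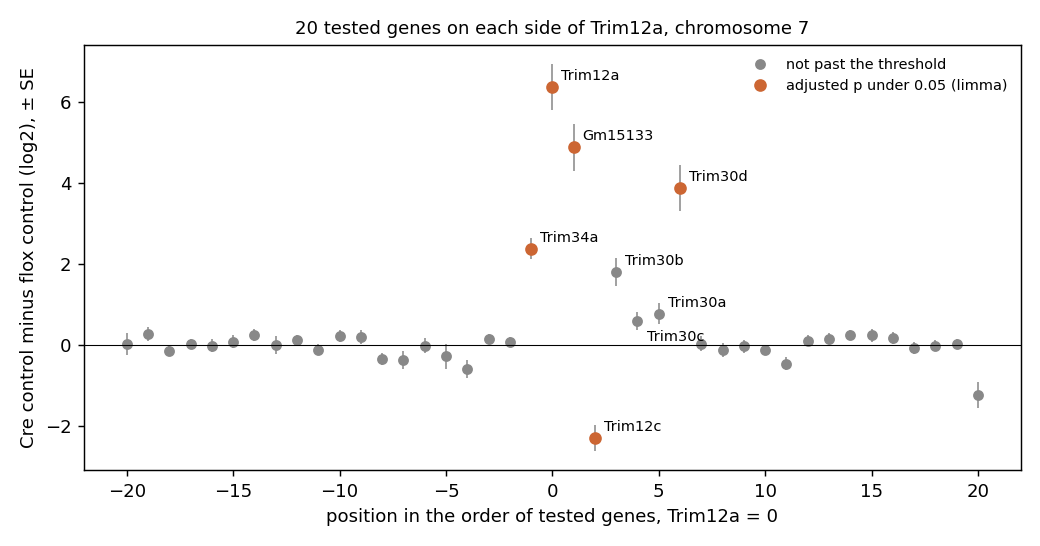
Points are tested genes in their order along chromosome 7, counted from Trim12a at 0 on the horizontal axis, with the difference between the control lines (log2, ± SE) on the vertical axis. The called genes, in orange, lie between positions -1 and 6, and the genes on both sides lie close to 0 apart from a last gene at -1.23.

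Chromosome 14 held 6 called genes, or 1.3% of its tested genes, chromosome 6 held 6, or 0.884%, chromosome 7 held 9, or 0.838%, and chromosome 16 held 3, or 0.752%, beside 0.436% over all genes. Chromosomes 9, 15, 18, 19 and Y held none. Of 57 called genes with a position, 16 had another called gene within 10 tested genes, in 6 neighbourhoods. Besides the TRIM cluster these were Tgm1 and Rabggta on chromosome 14, Frmd4b and Prok2 on chromosome 6, Emilin2 and Snord53 on chromosome 17, Atxn7l1 and F730043M19Rik on chromosome 12, and 3 microRNA genes on chromosome 2. The like count for as many genes picked without regard to calls was not made, so 16 of 57 is no result about clustering. Tgm1, a transglutaminase (-1.26, SE 0.22, adjusted p = 0.0456), and Rabggta, a subunit of the enzyme that attaches lipid to Rab proteins (-1.03, SE 0.17, adjusted p = 0.0395), were next to each other among the tested genes and both lower. Also on chromosome 7, 22 tested genes beyond Trim12a, the predicted gene Gm1966 differed by 3.88 (SE 0.48, adjusted p = 0.0149), and on chromosome 4 the unnamed transcript 8430436N08Rik by 3.28 (SE 0.34, adjusted p = 0.013). Both were picked out after their values were seen.

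Gbp8 was 3.86-fold higher in the Cre control. It read 5.84, 5.97 and 5.50 in the flox control and 7.81 and 7.63 in the Cre control. The lowest Cre control reading was well clear of the highest flox reading. The flox readings lay close to the filter level, so the fold depends on the array's floor. The difference was 1.95 (SE 0.21, 95% interval 1.48 to 2.42, adjusted p = 0.013). The other GBPs in its neighbourhood did not pass, with Gbp9 at 0.54 (SE 0.20), Gbp4 at 0.60 (SE 0.49) and Gbp10 at -0.18 (SE 0.25). Of 12 tested GBPs and immunity-related GTPases, 11 lay above 0 with a median of 0.49, where 49.2% of all genes lay above 0, and 1 was called, where 0.271% of genes were called higher by their brightest probe set. Next to passing were the GTPase genes Gm4951 (1.74, SE 0.38, adjusted p = 0.0837) and Iigp1 (1.34, SE 0.34, adjusted p = 0.111). In the cKO, Gbp8 read 5.34 and 5.32, both under the filter level, and 5.93.

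Of 55 tested interferon-stimulated genes, 50 lay above 0, with a median of 0.22, and 1 was called, where 0.271% of all genes were called higher. In 35 of them both Cre control arrays lay above all flox control arrays, where 15.4% of all genes did, and 15 had an unadjusted p under 0.05 on that side, where 6.84% did. The called gene was Mx1, an antiviral GTPase that many inbred strains lack in working form, with 6.47, 6.72 and 6.25 in the flox control and 8.22 and 8.02 in the Cre control. It was 3.12-fold higher (1.64, SE 0.27, adjusted p = 0.0409), a call lost when any control array or cKO replicate 1 was left out, with arrays centred on their medians and over all probe sets, named or not. Its paralogue Mx2 differed by 1.19 (SE 0.31, adjusted p = 0.118), the DNA sensor family gene Ifi207 by 0.87 (SE 0.20, adjusted p = 0.103) and Phf11d by 1.18 (SE 0.29, adjusted p = 0.11). The list mean was 11.07 to 11.38 in the flox pools and 11.54 to 11.59 in the Cre control pools. Phf11c, a PHD finger gene on chromosome 14 outside the list, was higher by 1.91 (SE 0.31, adjusted p = 0.0402), and Parp11, a mono-ADP-ribosyltransferase, by 1.13 (SE 0.19, adjusted p = 0.0409), and both calls were lost when any control array or cKO replicate 1 was left out. Of 6 Schlafen genes, regulators induced by interferon in myeloid cells, 4 lay above 0 and none was called, with Slfn8 at 0.68 (SE 0.19).

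Among 53 tested genes that LPS induces through NF-kB, 20 lay above 0 and 33 below, with a median of -0.05, which was -0.09 without Cre control replicate 1 and 0.01 without replicate 2. The costimulatory receptor gene Cd40 was the 1 called member, where 0.271% of all genes were called higher by their brightest probe set. It read 8.09, 7.99 and 7.75 in the flox control and 9.06 and 8.91 in the Cre control, a 2.06-fold difference (1.04, SE 0.16, adjusted p = 0.0385, limma). Cd40 was not called when flox control replicate 1 or 2, cKO replicate 1 or a Cre control array was left out. The chemokine genes Cxcl1 (-0.80, SE 0.22) and Cxcl3 (-0.78, SE 0.23) and the interleukin 23 subunit gene Il23a (-1.16, SE 0.34) lay below 0 and the chemokine gene Ccl5 (0.83, SE 0.21) above, none past the threshold. Il23a read 9.26, 9.39 and 9.74 in the flox control and 8.66 and 7.95 in the Cre control, with no overlap (adjusted p = 0.159). Il1b (-0.03) and Tnf (0.09) read almost the same in both lines.

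The other genes higher in the Cre control by the naming rule were of mixed function. Ccnyl1, a cyclin Y-like gene, read 7.30, 6.95 and 7.30 in the flox control and 9.97 and 10.25 in the Cre control, 7.61-fold higher (2.93, SE 0.36, adjusted p = 0.0149). Slamf7, a receptor of the SLAM family, was 3.12-fold higher (1.64, SE 0.22, adjusted p = 0.0204) and Itga4, the alpha 4 integrin that binds VCAM-1, 2.55-fold (1.35, SE 0.23, adjusted p = 0.0448). Pde2a, which degrades cyclic AMP and cyclic GMP, was 2.05-fold higher (1.03, SE 0.12, adjusted p = 0.0138), with pools within 0.19 of each other in both lines. Differences of 0.92 to 1.35 were found in Kpna3 (an importin), Rbm12b2 (an RNA-binding protein), C2cd3 (a centriole protein), Dgkh (a diacylglycerol kinase), Ep400 (a chromatin remodeller), the ubiquitin ligase Cblb, the ethanolamine kinase Etnk1 and AW046200. A second probe set of Ep400 read -0.38 (adjusted p = 0.458), against 0.94 for the called one. Gart, an enzyme of purine synthesis outside the naming rule's highest genes, passed with 1 of 3 probe sets, at 0.82 (adjusted p = 0.0456), while the others read 0.58 and -0.05. Slamf7 and Pde2a were called with any 1 flox control or cKO array left out, and Ccnyl1 with any but flox control replicate 2. Itga4 and the genes from Kpna3 to AW046200, were not called when flox control replicate 1 or 2 or cKO replicate 1 was left out. None of these genes was called when a Cre control array was left out. Of 20 alternatives, the calls of Cblb were lost in 13, of Rbm12b2 in 12, of Etnk1 in 11 and of AW046200 in 10, and the call of AW046200 also with the control arrays fitted alone.

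Markers of T and NK cells, macrophages, dendritic cells and eosinophils lay mostly above 0 in the Cre control, and none of them was called. Of 19 tested T and NK cell markers 17 lay above 0, with a median of 0.50, and 11 had an unadjusted p under 0.05 on that side by limma, where 6.84% of all genes did. The median was 0.33 without Cre control replicate 1 and 0.93 over probe sets above the 75th percentile. The list mean was 6.24 to 6.52 in the flox pools and 6.86 to 6.96 in the Cre control pools, and 19 of the 21 markers on the array passed the filter on dim probe sets. Those nearest to passing were the interleukin 7 receptor Il7r (0.88, SE 0.16, adjusted p = 0.0532), the NKG2D receptor Klrk1 (1.23, SE 0.23, adjusted p = 0.0559) and the granzyme Gzmb (1.74, SE 0.41, adjusted p = 0.107), while the T cell receptor chain Cd3d read -0.48. Macrophage and monocyte markers had 13 of 17 above 0 (median 0.27, list mean 8.24 to 8.63 against 8.75 to 8.76) and dendritic cell and MHC class II genes 12 of 16 (median 0.20, 7.47 to 7.69 against 7.79 to 7.87), among them Mertk (0.54, SE 0.12) and Cd86 (0.88, SE 0.16, adjusted p = 0.0524). The macrophage median was 0.13 without flox control replicate 3 and 0.16 with array weights, and the dendritic cell median was 0.13 with no filter and 0.52 above the 75th percentile. Eosinophil markers had 6 of 6 above 0 (median 0.62), and their list mean was 6.96 in Cre control replicate 1 and 7.87 in replicate 2, against 6.53 to 7.15 in the flox pools. Their median was 1.16 without Cre control replicate 1 and 0.23 without replicate 2. Medians were 0.00 for B cell, -0.04 for mast cell and basophil, -0.09 for fibroblast, -0.13 for endothelial and epithelial and -0.02 for erythroid markers, over 5, 3, 12, 6 and 1 tested genes. In pooled cells, more cells of a type and more RNA per cell cannot be told apart. The part of these cells in the differences of Cd40, Slamf7, Itga4, Cblb and the interferon-stimulated genes was not tested.

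Neutrophil markers read high in both lines. Ly6g, the surface antigen of mouse neutrophils, read 11.47, 11.20 and 10.96 in the flox control and 10.79 and 10.66 in the Cre control, the alarmin gene S100a8 13.23 to 13.30 and 13.10 to 13.21, and the G-CSF receptor gene Csf3r 13.26 to 13.42 and 13.32 to 13.42. Of 24 tested core genes 21 lay below 0, with a median of -0.10, and none was called. Genes of specific and gelatinase granules, the stores of lactoferrin, collagenase and gelatinase, had 22 of 26 below 0 with a median of -0.27, 9 at an unadjusted p under 0.05 on that side, where 7.8% of all genes were, and none called. Nearest to passing were the sulfhydryl oxidase gene Qsox1 (-0.68, SE 0.13, adjusted p = 0.0618) and Olfm4 (-0.62, SE 0.14, adjusted p = 0.0929), with lactoferrin, Ltf, at -0.78 and cathelicidin, Camp, at -0.84. All 8 tested genes of the stefin A group, inhibitors of cysteine proteases, lay below 0 with a median of -0.76, and in 7 of them the Cre control arrays lay below all flox control arrays, where 17.5% of all genes did. Cstdc6 (-1.58, SE 0.29, adjusted p = 0.0524) and Stfa3 (-1.46, SE 0.31, adjusted p = 0.0769) were nearest to passing, and copies of this family can share probes.

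**Figure D4:**
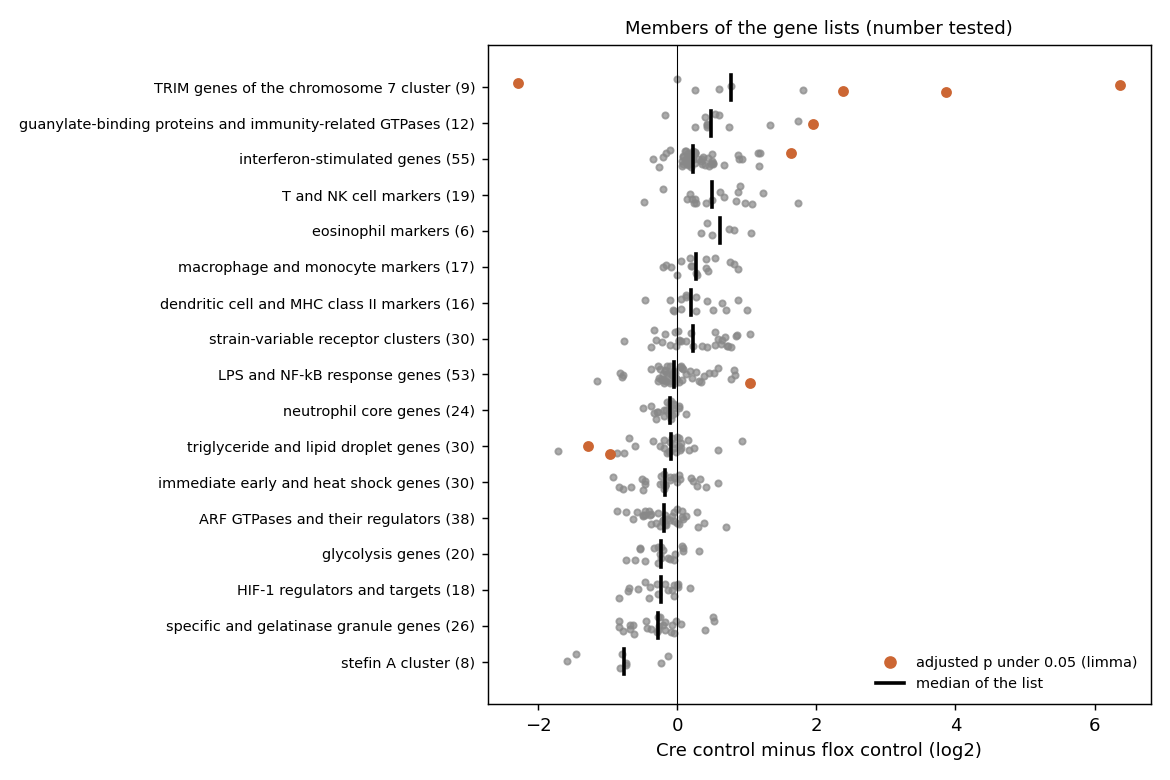
Each row is a gene list with the number of tested genes in brackets, each point a gene and each black line the list's median; the horizontal axis is the difference between the control lines (log2). Orange points passed an adjusted p of 0.05, and the TRIM, GBP, interferon and T and NK cell lists lie mostly above 0 while the granule, stefin, glycolysis and HIF-1 lists lie mostly below.

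Emilin2, which encodes an extracellular matrix glycoprotein, was 2.63-fold lower in the Cre control. It read 11.65, 12.05 and 12.06 in the flox control and 10.45 and 10.59 in the Cre control, so that the groups lay more than 1 log2 unit apart. The difference was -1.40 (SE 0.16, 95% interval -1.76 to -1.04, adjusted p = 0.0133), and the call was lost only without either Cre control array (-1.33 and -1.47, adjusted p = 0.182 and 0.178) over the alternatives tried. In the cKO it read 12.10, 12.18 and 11.92. Other genes lower by the naming rule were Anxa3 (-1.31, SE 0.18, adjusted p = 0.0223), the ribosomal protein gene Rps3a1 (-1.46, SE 0.19, adjusted p = 0.0166), the stress-inducible leucine sensor Sesn2 (-1.09, SE 0.19, adjusted p = 0.0456) and Prok2 (-1.07, SE 0.18, adjusted p = 0.0409). Prok2 read 10.97, 10.77 and 10.87 in the flox control and 9.85 and 9.75 in the Cre control, the pools of each line within 0.2 of each other. The pore-forming protein gene Gsdme differed by -0.95 (SE 0.14, adjusted p = 0.025). Lower by 0.72 to 0.95 were also Hexim1, an inhibitor of the elongation factor P-TEFb, Abtb1, Borcs6 of a complex that positions lysosomes, Tmem9b and Pofut2, an O-fucosyltransferase. Glo1, the glyoxalase whose copy number differs among inbred strains, read 6.06, 5.95 and 5.96 against 5.20 and 5.27, the latter under the filter level (-0.76, SE 0.11, adjusted p = 0.0294). Rps3a1 was not called when flox control replicate 2 or a Cre control array was left out. The genes after it, and Anxa3, Tgm1 and Rabggta, were also not called when cKO replicate 1 was left out, and all but Anxa3 when flox control replicate 1 was. Hexim1, Abtb1, Tmem9b and Pofut2 were not called with the control arrays fitted alone, and of 20 alternatives the calls of Tmem9b were lost in 13, of Abtb1 in 12, of Sesn2 and Pofut2 in 11 and of Tgm1 and Borcs6 in 10.

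Among 30 tested genes of triglyceride synthesis and lipid droplets 20 lay below 0, with a median of -0.09, and 2 were called lower, where 0.143% of all genes were. The median was -0.16 without flox control replicate 3 and -0.15 over probe sets above the 75th percentile. Gpat3, which makes lysophosphatidic acid for triglyceride synthesis, read 10.03, 10.20 and 9.84 in the flox control and 8.48 and 9.02 in the Cre control, 2.42-fold lower (-1.28, SE 0.20, adjusted p = 0.0395). G0s2, the inhibitor of adipose triglyceride lipase, read 11.74, 11.71 and 11.66 against 10.86 and 10.61, 1.96-fold lower (-0.97, SE 0.14, adjusted p = 0.0223). A dimmer G0s2 probe set read -1.15 (SE 0.25, adjusted p = 0.0815). Dgat2, which completes triglyceride synthesis, missed the threshold narrowly with 12.43, 12.66 and 12.74 against 10.95 and 10.85 (-1.71, SE 0.31, adjusted p = 0.0506), as did Agpat4 (-0.87, SE 0.18, adjusted p = 0.068). Neither Gpat3 nor G0s2 was called when flox control replicate 1 or 2, cKO replicate 1 or a Cre control array was left out.

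Glycolysis genes, which the title of the series concerns, lay mostly below 0 in the Cre control. Of 20 tested, 16 were below 0 with a median of -0.23, none was called, and 5 had an unadjusted p under 0.05 on that side (limma). On that side 7.8% of all genes had such a p. In 11 the Cre control arrays lay below all flox control arrays, where 17.5% of all genes did. Nearest to passing were the kinase Pgk1 (-0.60, SE 0.15, adjusted p = 0.111), lactate dehydrogenase Ldha (-0.53, SE 0.16, adjusted p = 0.158) and the lactate exporter Slc16a3 (-0.74, SE 0.24, adjusted p = 0.19). Genes of the hypoxia factor HIF-1 had 15 of 18 below 0 and the same median, -0.23, none called, with the prolyl hydroxylase Egln3 at -0.69 (SE 0.20). The list mean of glycolysis was 9.69 to 9.76 in the flox pools and 9.48 to 9.51 in the Cre control pools.

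Arf6 itself did not differ beyond the spread of the pools. It read 8.19, 8.20 and 7.68 in the flox control and 7.79 and 7.86 in the Cre control, so that the groups overlapped, with a difference of -0.20 (SE 0.19, 95% interval -0.62 to 0.22, adjusted p = 0.68). A second probe set read -0.22 (SE 0.19, adjusted p = 0.629). In the cKO this second probe set read 6.49, 6.13 and 6.25, close to the 6.33 of both Cre control pools. The first fell to 6.49, 6.06 and 6.2 in the cKO. The second is therefore no separate reading of Arf6. Of 38 tested ARF GTPases and their regulators, 28 lay below 0 with a median of -0.19 and none was called. The GTPase-activating protein Acap1 (-0.87, SE 0.16, adjusted p = 0.0524) and the exchange factor Cyth2 (-0.63, SE 0.13, adjusted p = 0.0682) were nearest to passing.

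Pools of one line differed from each other as well. The Cre control pools were 2-fold or more apart in 20 of 14002 tested probe sets, and the flox control pools in 51, 145 and 402. Pairs of 1 pool from each line were apart in 193 to 560 probe sets, and the widest of them, at 499 and 560, were those with flox control replicate 1. Group means differed 2-fold or more in 180 probe sets (1.29%), 136 higher (0.971%) and 44 lower (0.314%) in the Cre control, and the arrays of the lines did not overlap in 4584 (32.7%). Array medians were 5.41 to 5.48. Flox control replicate 1 had an Xist level of 5.46, against 8.73 and 8.76 in its companions and 9.34 and 9.39 in the Cre control, and the Y-linked gene Eif2s3y read 8.66 to 9.89 in all 5, so the sex of the pooled mice was not the same throughout. Without flox control replicate 1 and cKO replicate 1, which lacked Eif2s3y signal at 4.08, 24 probe sets passed, 23 of them among the 68, and the direction of all 68 was kept. This setting was chosen after the data were seen.

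**Figure D5:**
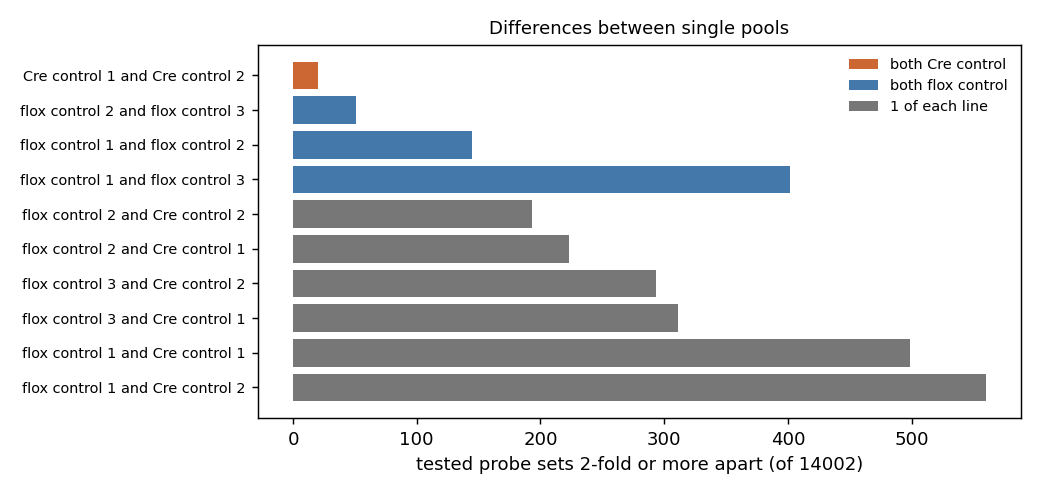
Bars give the number of 14002 tested probe sets that were 2-fold or more apart between 2 single pools, on a linear axis from 0, for the Cre control pair, the flox control pairs and pairs of different lines. The Cre control pair has the shortest bar at 20, and the pairs of flox control replicate 1 with a Cre control pool have the longest, at 499 and 560.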

How the data were processed

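The authors deposited log2 probe set intensities of Affymetrix Mouse Gene 2.0 ST arrays, made by background subtraction and normalization with RMA in Expression Console, per the series' design text. The sources used here give no software version or annotation build and differ on the RNA and labelling kits. Each array took 100 ng of total RNA with an integrity number of at least 7, per the labels' protocols.

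Of 34472 probe sets, 23521 had 1 gene symbol, 1814 several and 9137 none in the platform annotation. Symbols were updated by gene identifier from RefSeq for GRCm38.p6 (23328 matched), which also gave gene order. The test took probe sets with 1 symbol that exceeded 5.45 (the file's median) in at least 2 of 8 arrays: 14002, covering 13296 genes. A gene can pass this filter through the Cre control or the cKO arrays alone. The test was limma 3.58.1 (R 4.3.3), as 1 fit of 3 groups with 5 residual degrees of freedom and 4.69 from the moderated prior, two-sided, with Benjamini-Hochberg adjustment and a threshold of 0.05. A gene in a list is read from its probe set with the highest mean. No set test was run. Replicates are pools of separate mice, and the number of arrays limits every value.

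The comparison, the members and the 34 gene lists were chosen with earlier results of these data known. The genes named were Trim12a, Gbp8, Emilin2, Arf6, up to 20 called genes in each direction with the greatest difference and no overlap of arrays (predicted, microRNA and small nucleolar RNA genes left out), and up to 4 members of a list with the smallest p. The fit was tested on simulated data. Protein sequences were not used here.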

Additional observations from a re-analysis of the deposited data

How the results depend on the processing

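The direction of all 68 called probe sets was kept in every alternative in which they were tested. Without 1 array the count of called probe sets ranged from 0 to 235 (0 to 134 higher and 0 to 101 lower), the probe sets without overlap from 4584 upward to 7640, and the differences of Trim12a from 6.29 to 6.45, of Gbp8 from 1.81 to 2.04 and of Emilin2 from -1.53 to -1.33. A lone Cre control array was assumed to vary like the other groups. With the control arrays alone in the fit 131 probe sets passed (83 higher, 48 lower), 59 of them among the 68, and with array weights 819 (366 higher, 453 lower). The cause was not tested. Without flox control replicate 1 and cKO replicate 1, 24 passed (19 higher, 5 lower). Above the 75th percentile, with fewer probe sets tested, 2932 did not overlap, and over all probe sets, named or not, 294 differed 2-fold. Other filters, scalings and variance models gave 52 to 79 calls. No paired analysis was possible because the labels give no replicate numbers shared between groups. Probe sets near 5.45 carry little signal over background, which limits folds of dim genes.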

Other observations

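Some lists not described above also showed no call in either direction. MHC class I and antigen processing genes had 15 of 19 above 0 in the Cre control (median 0.13), with the class I transactivator Nlrc5 at 1.00 (SE 0.25, adjusted p = 0.111, limma), and the median was 0.33 without flox control replicate 1 and -0.02 without flox control replicate 3. Receptor clusters whose copies vary among mouse strains had 21 of 30 above 0 (median 0.22), with Sirpb1c at 1.05 (SE 0.27) and Ms4a6d at 0.71 (SE 0.18). Immediate early and heat shock genes had 21 of 30 below 0 (median -0.17), among them Egr1 with 11.96, 11.39 and 11.00 in the flox control and 10.69 and 10.35 in the Cre control (-0.93, SE 0.26). Oxidative phosphorylation genes had a median of -0.04 over 42 tested, and azurophil granule genes -0.06 over 13, and without flox control replicate 1 these medians were 0.04 and 0.05. The azurophil median was -0.16 without flox control replicate 3.

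Of 23 tested genes with variants known among laboratory strains, 3 were called, Trim12a, Mx1 and Glo1, where 0.414% of all genes were called by their brightest probe set. That list, like the others, was written with earlier results of these data known, the Trim12a difference among them, so the count is no separate support. The median of fibroblast and stromal markers was 0.10 without flox control replicate 1, -0.26 without flox control replicate 3, 0.42 without Cre control replicate 1 and -0.66 without replicate 2. Of the called probe sets, 14 belonged to 6 microRNA genes, and 6 of them, all named Mir466b-2, had identical values (1.26, SE 0.18), so they were counted as 1 gene. The brightest probe set of Mir466b-2 differed by 0.68 and was not called. Platelet markers (median 0.16 over 8), purine genes (0.16 over 17) and cell cycle genes (-0.03 over 19) had no called member by their brightest probe set, and the purine median was 0.08 without flox control replicate 2 and 0.09 without flox control replicate 3 or Cre control replicate 2.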
